A study of Mus musculus with 12 samples.

Results

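The genes described here are those that encode the chains of the collagens, taken as every protein-coding gene whose symbol is Col, a type number, the letter a and a chain number. The rule found 44 such genes among 48448 genes with a matched transcript: 11 of the fibril-forming types, 6 of basement membrane collagen IV and 27 of other types. RNA-seq was run on 12 mouse colon libraries, all of strain C57BL/6 and all from a model of cancer that arises with colitis. Flox adjacent (3 libraries) and flox tumour (3 libraries) come from mice of the genotype Synbindinflox, and ΔIEC adjacent (3 libraries) and ΔIEC tumour (3 libraries) from mice of the genotype SynbindindeltaIEC, in which Synbindin is deleted (IEC is the usual shorthand for intestinal epithelial cells, although the labels do not spell it out). Trappc4 encodes Synbindin, which belongs to the TRAPP complexes of vesicle transport between the endoplasmic reticulum and the Golgi. The adjacent tissue is thus colon from the tumour model, and no group is colon of untreated mice. The labels name neither the agents of the model nor the ages, nor the promoter that drives the deletion, and they do not say whether the 3 libraries of a group come from separate animals, so each p-value measures the spread between these libraries. Values are FPKM, fragment counts scaled to transcript length and library size, summed over the transcripts of a gene, and they carry no read depth.

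Collagens are trimers whose chains wind into a helix, and the helix needs glycine at regular steps, so the helical parts of the chains consist of Gly-X-Y triplets. Fibrillar chains (types I, III and V among them) form the cables of the interstitial matrix and are made mostly by fibroblasts. Collagen IV forms the sheet-like network of basement membranes under epithelium and around vessels and muscle. Collagen VI forms beaded filaments, collagens XII, XIV, XVI and IX are FACITs that sit on the surface of fibrils, collagen VII forms the anchoring fibrils of squamous epithelium, collagens XV and XVIII are multiplexins of basement membrane zones, and collagens XVII and XXIII span the plasma membrane. In the colon these proteins make up the lamina propria, the submucosa, the muscle wall and the membrane on which the crypts rest.

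The repeat is visible in the coding sequence, and the following stretches are shown because the comparisons below turn on these classes. Each is 90 bases of spliced coding sequence from the longest complete coding transcript, read 5′ to 3′ on GRCm38 with GENCODE M21 annotation, with glycine codons that lie in an uninterrupted run of at least 4 triplets in capitals.
Col1a1: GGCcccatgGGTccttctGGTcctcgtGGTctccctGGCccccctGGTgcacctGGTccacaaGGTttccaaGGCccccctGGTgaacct
Col3a1: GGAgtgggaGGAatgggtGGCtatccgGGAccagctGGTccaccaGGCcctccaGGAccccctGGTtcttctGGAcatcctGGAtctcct
Col4a1: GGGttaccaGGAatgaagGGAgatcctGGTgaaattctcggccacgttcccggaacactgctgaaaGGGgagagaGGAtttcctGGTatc
Col4a2: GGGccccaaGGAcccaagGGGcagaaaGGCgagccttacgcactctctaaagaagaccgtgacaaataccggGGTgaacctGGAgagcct
Col6a3: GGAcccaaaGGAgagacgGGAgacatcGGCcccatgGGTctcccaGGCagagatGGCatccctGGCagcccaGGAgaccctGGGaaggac
Col7a1: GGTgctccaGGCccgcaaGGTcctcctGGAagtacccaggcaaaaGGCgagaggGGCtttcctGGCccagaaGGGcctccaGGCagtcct
Col12a1: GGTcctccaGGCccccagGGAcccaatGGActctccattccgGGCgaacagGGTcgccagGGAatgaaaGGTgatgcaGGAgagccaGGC

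The fibrillar stretches hold 10 glycine codons in step, whereas the collagen IV stretches were chosen to show a break of the repeat, of 10 codons in Col4a1 and 12 in Col4a2. The Col7a1 and Col12a1 stretches were also chosen to show a break, of 3 and 2 codons. Those of Col1a1, Col3a1 and Col6a3 were taken from the start of the longest run. The Col1a1 stretch lies in 3 coding exons at chr11:94939451-94939939 on the plus strand, and that of Col3a1 in 2 coding exons at chr1:45323762-45325413 on the plus strand. The collagen IV stretches lie in 2 coding exons each, at chr8:11244498-11245075 on the minus strand for Col4a1 and chr8:11402163-11403001 on the plus strand for Col4a2. Those of Col6a3 (chr1:90791924-90792445, minus strand), Col7a1 (chr9:108963227-108963923, plus strand) and Col12a1 (chr9:79612931-79613811, minus strand) also span 2 coding exons. Counting runs of at least 5 triplets, the longest run held 338 triplets in Col1a1 and 344 in Col3a1, in 1452 and 1463 codons. Col4a1 held 342 triplets in all but in 16 runs, the longest of 40, and Col4a2 held 22 runs, the longest of 66. Col7a1 held 398 triplets in 16 runs, with 75 in the longest. Col6a3 and Col12a1 are mostly other domains: runs covered 8.0% of the 3283 codons of Col6a3 and 7.6% of the 3064 codons of Col12a1.

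Summed FPKM of a library ranged from 534806 to 821487, and 14757 to 15893 genes reached an FPKM of 1. Trappc4, the deleted gene, had 16.8, 17 and 17.4 FPKM in flox adjacent, 10.2, 12.6 and 10.4 in ΔIEC adjacent, 18.7, 17.5 and 20.9 in flox tumour and 12.7, 11.4 and 9.91 in ΔIEC tumour tissue, so all ΔIEC libraries lay below all flox libraries. Its ΔIEC minus flox difference was -0.59 in adjacent tissue and -0.70 in tumours on the log2(FPKM + 1) scale, without passing adjustment over all genes (limma adjusted p = 0.931 and 1.0), and the transcript was still measured in every ΔIEC library. The series title calls the material scraped epithelium. The epithelial keratins and Epcam were abundant in every library (8 markers summed to 4002 to 9584 FPKM), but 12 fibroblast markers (31.6 to 420.7 FPKM), 8 smooth muscle markers (26.2 to 290.8) and 8 endothelial markers (9.87 to 54.5) were measured in every library too. In such mixed tissue, fewer cells of a type and less RNA per cell cannot be told apart.

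Of the 44 genes, 28 reached an FPKM of 1 in at least 3 libraries and were tested: 8 fibrillar, 3 basement membrane and 17 other genes. The limma model was fitted to log2(FPKM + 1) of all 16970 genes that passed this filter, a gene was called at a Benjamini-Hochberg adjusted p below 0.05, and differences are given on that log2 scale, which understates changes of genes with low FPKM. Col3a1 had the highest mean level in each of the 4 groups, and Col4a1, Col1a2 and Col1a1 came next over all libraries. Col9a2, Col9a3, Col17a1 and Col23a1 passed the filter through tumour libraries alone, and Col7a1, Col5a3 and Col24a1 had 1 adjacent library at an FPKM of 1. The other 21 tested genes would have passed on their adjacent libraries alone. Among these, Col4a5 had no tumour library at an FPKM of 1 and Col6a5 had 1. The remaining 16 genes never exceeded an FPKM of 1.35.

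**Figure D1:**
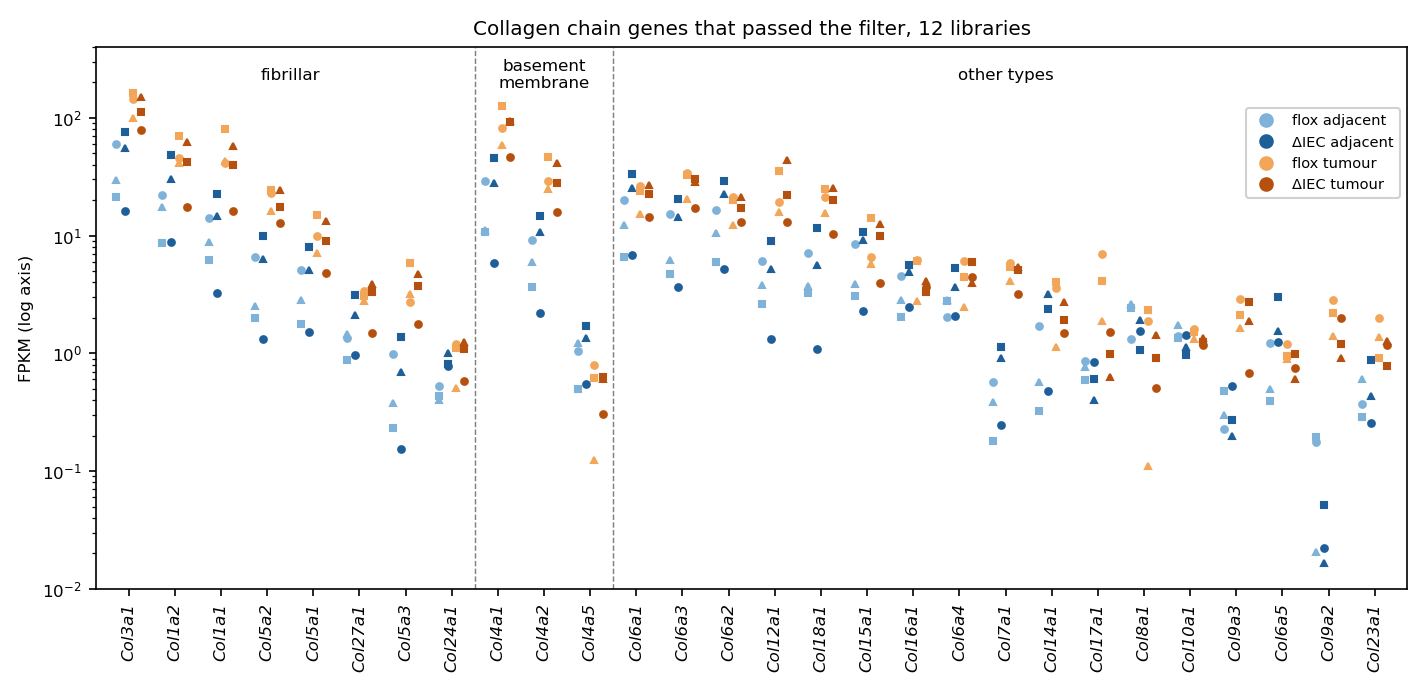
FPKM of the 28 tested collagen genes on a log axis, 1 point per library (circle, square and triangle are replicates 1, 2 and 3), ordered by class and mean level. Tumour libraries lie above adjacent libraries for Col4a1, Col4a2, Col3a1, Col5a2, Col5a3, Col12a1, Col9a2, Col9a3 and Col7a1, while adjacent libraries spread widely, with ΔIEC adjacent 1 low and ΔIEC adjacent 2 high for most of the abundant genes.

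The first question was how collagen transcripts differ between tumour and adjacent tissue of flox mice. In flox mice, 16 of 28 tested collagen genes were higher in tumours and 0 were lower (limma, also 0 lower at an unadjusted p under 0.05), against 16.6% of all tested genes called higher and 19.7% called lower. The calls included 6 of 8 fibrillar, 2 of 3 basement membrane and 8 of 17 other genes. The median difference of the 28 genes was 1.35, against -0.01 over all tested genes. For 17 of 28 collagen genes the 3 flox tumour libraries lay above the 3 flox adjacent ones, as they did for 26.4% of all tested genes. Leaving out single libraries gave 6 to 18 calls: 6 without flox adjacent 2, 9 without flox tumour 2 and 10 without flox adjacent 3 or without flox tumour 1. Over all tested genes, 6163 calls in either direction became 3898, 4742, 4500 and 4520 without those libraries, in that order. The calls of Col5a2, Col5a3, Col9a2, Col9a3, Col7a1 and Col17a1 held in all 12 of these fits, but apart from Col5a2 these genes passed the filter through tumour libraries, alone or with 1 adjacent library, so that a higher level in tumours was partly fixed by the filter. Of the 21 genes that pass on adjacent libraries alone, 10 were called. The share of all genes called under that narrower filter was not computed, so this count has no background beside it. Rescaling the protein-coding genes to a common total moved the median difference of all genes from -0.01 to 0.40 and the split of calls over all genes from 2817 higher and 3346 lower to 5910 and 1481, and the collagen count was then 20 higher and 0 lower with a median of 1.56.

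The same comparison in ΔIEC mice called 8 of 28 collagen genes higher in tumours and 0 lower (limma, 1 lower at an unadjusted p under 0.05, Col6a5), against 13.9% of all tested genes called higher and 15.5% lower. Called were 2 of 8 fibrillar genes, 1 of 3 basement membrane genes and 5 of 17 others, and the median difference was 0.52 against -0.03 over all tested genes. The 3 ΔIEC tumour libraries lay above the 3 ΔIEC adjacent ones for 9 of 28 collagen genes and for 20.8% of all tested genes. The 8 genes (Col4a2, Col5a2, Col5a3, Col12a1, Col9a2, Col9a3, Col7a1 and Col18a1) were all among those called in flox mice, where they make up 50% of the calls. The count was unstable to single libraries, with 2 calls without ΔIEC tumour 3, 3 without ΔIEC tumour 2, 4 without ΔIEC adjacent 1 or without ΔIEC adjacent 3, and 5 without ΔIEC tumour 1 or without flox tumour 1, and 2 with a fit to these 2 groups alone. The calls without ΔIEC adjacent 1 included Col6a5, which was called lower. Over all tested genes, calls in either direction went from 4981 to 4748 without ΔIEC tumour 3 and 3644 without ΔIEC tumour 2. They were 3389 without ΔIEC adjacent 1, 4028 without ΔIEC adjacent 3, 2919 without ΔIEC tumour 1 and 4509 without flox tumour 1. The fit to these 2 groups alone called 2564 genes. Those fits tested 16794 to 16970 genes. Col9a2 and Col7a1 were called in all 12 fits that left out a library, but both entered the test through tumour libraries. Of the 21 genes that pass on adjacent libraries alone, 4 were called in ΔIEC mice, none of them in all 12 fits, again without a share of all genes under that filter. Quantile normalization gave 8 higher and 2 lower (Col4a5 and Col6a5), and rescaling the protein-coding genes, which moved the median of all genes to 0.27 and the split of all calls from 2357 higher and 2624 lower to 4168 and 1265, gave 11 higher and 0 lower. Over both genotypes, all 6 tumour libraries lay above all 6 adjacent libraries for 9 of 28 collagen genes, against 13.5% of all tested genes, and none of the 28 showed the reverse. The filter partly fixed this too. Col9a2, Col9a3, Col5a3 and Col7a1, which are among the 9, passed it through tumour libraries, alone or with 1 adjacent library. Col4a6, Col8a2 and Col20a1, which fell under the filter, showed the reverse. The share of all genes with that reverse order was not computed, so the reverse counts have no background beside them.

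**Figure D2:**
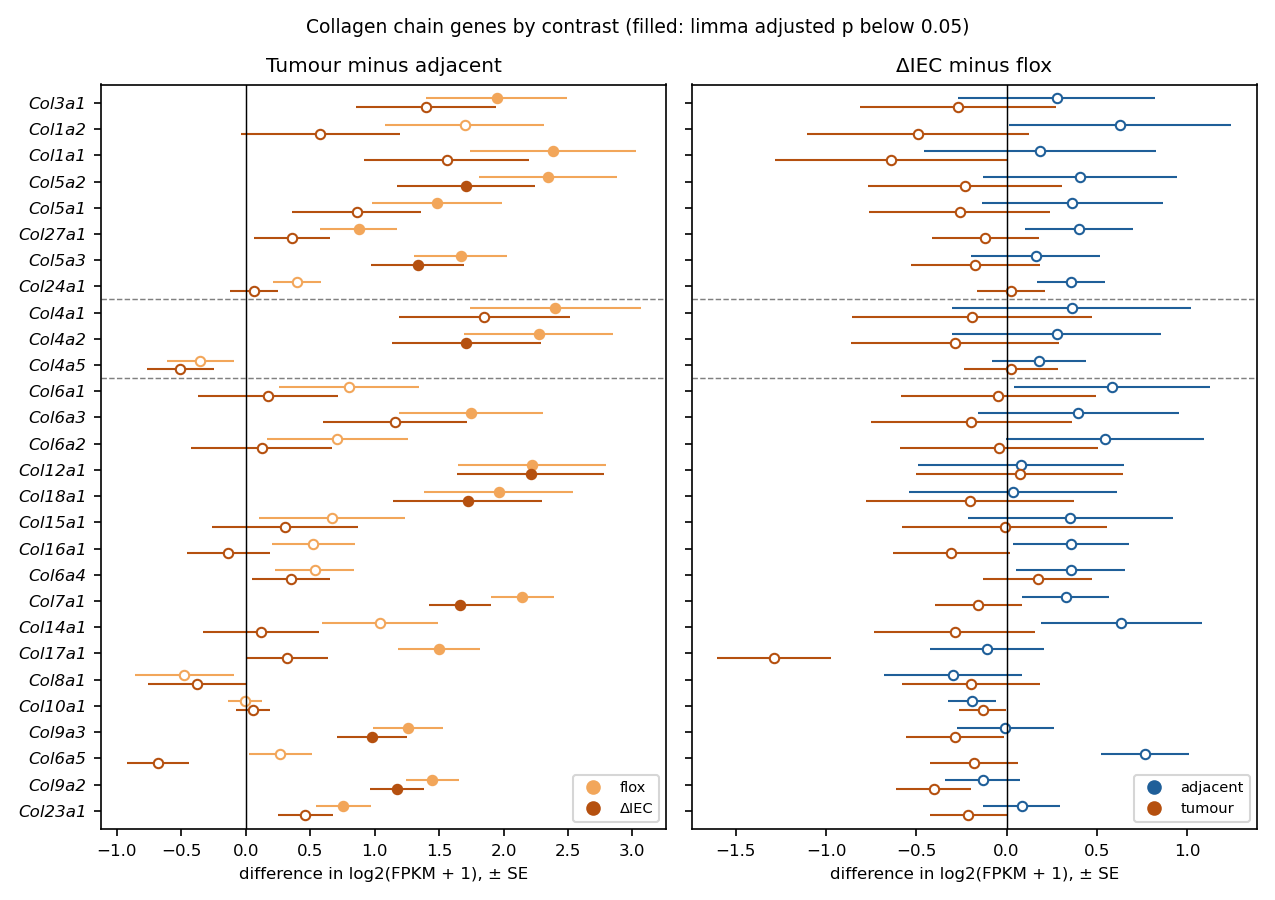
Fitted differences in log2(FPKM + 1) of the 28 tested collagen genes, with bars of 1 standard error, for tumour minus adjacent (left) and ΔIEC minus flox (right); filled points have a limma adjusted p below 0.05. The left panel holds 16 filled points for flox and 8 for ΔIEC mice, all above 0, and the right panel holds none.

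Among the fibrillar collagens, type I combines Col1a1 and Col1a2 chains, and type III is a homotrimer of Col3a1 that often shares fibrils with type I. Col3a1 (ENSMUSG00000026043, chr1:45311538-45349706) had 59.7, 21.3 and 29.9 FPKM in flox adjacent, 16.1, 75.7 and 55.8 in ΔIEC adjacent, 144.4, 163.5 and 99.3 in flox tumour and 78.5, 112.6 and 150.7 in ΔIEC tumour libraries. Each tumour library lay above each adjacent library, the closest pair being ΔIEC adjacent 2 and ΔIEC tumour 1. Col3a1 rose by 1.95 (SE 0.55) in flox tumours (limma adjusted p = 0.0200) and differed by 1.40 in ΔIEC tumours (adjusted p = 0.0782, not called). The call in flox mice was lost without flox adjacent 2, flox adjacent 3, flox tumour 1 or flox tumour 2, with adjusted p of 0.0568 to 0.0769, and a call in ΔIEC mice appeared without ΔIEC adjacent 2 (adjusted p = 0.0353).

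Col1a1 (ENSMUSG00000001506, chr11:94936224-94953042) had 14.1, 6.26 and 8.86 FPKM in flox adjacent, 3.27, 22.7 and 14.6 in ΔIEC adjacent, 41.7, 81.1 and 42.7 in flox tumour and 16.1, 39.6 and 57.6 in ΔIEC tumour libraries. The flox groups were separate, whereas ΔIEC tumour 1 lay within the range of ΔIEC adjacent tissue. Col1a1 rose by 2.38 (SE 0.64) in flox tumours (limma adjusted p = 0.0170, lost without flox adjacent 2 or flox tumour 2 at up to 0.0641) and differed by 1.56 in ΔIEC tumours (adjusted p = 0.0934). Col1a2 (ENSMUSG00000029661, chr6:4504814-4541544), the partner chain, had 22.1, 8.67 and 17.5 FPKM in flox adjacent, 8.90, 48.3 and 30.2 in ΔIEC adjacent, 45.9, 69.8 and 41.4 in flox tumour and 17.6, 42.3 and 62.0 in ΔIEC tumour libraries. Its difference was 1.70 in flox mice (limma adjusted p = 0.0540) and 0.58 in ΔIEC mice (adjusted p = 0.507), so neither was called, although the flox groups did not overlap. The flox difference passed the threshold without ΔIEC adjacent 1, ΔIEC adjacent 2 or ΔIEC tumour 1 (adjusted p = 0.0204 to 0.0413).

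Type V collagen is a minor component that nucleates and limits fibrils, built from Col5a1 and Col5a2 with Col5a3 in some tissues. Col5a2 (chr1:45374321-45503282) had 6.54, 2.00 and 2.53 FPKM in flox adjacent, 1.33, 9.89 and 6.34 in ΔIEC adjacent, 23.1, 24.5 and 16.1 in flox tumour and 12.7, 17.5 and 24.6 in ΔIEC tumour libraries. Col5a3 (chr9:20770050-20815067) had 0.978, 0.231 and 0.378 FPKM in flox adjacent, 0.154, 1.39 and 0.700 in ΔIEC adjacent, 2.72, 5.86 and 3.22 in flox tumour and 1.77, 3.72 and 4.77 in ΔIEC tumour libraries. Both genes were higher in every tumour library than in any adjacent library. Col5a3 had only 1 adjacent library at an FPKM of 1, so its higher level in tumours was partly fixed by the filter. Col5a2 rose by 2.35 (SE 0.54) in flox tumours (limma adjusted p = 0.00798) and by 1.71 in ΔIEC tumours (adjusted p = 0.0372), and Col5a3 by 1.67 (SE 0.36, adjusted p = 0.00591) and 1.34 (adjusted p = 0.0199). In ΔIEC mice the call of Col5a2 was lost without ΔIEC adjacent 1 or 3, flox tumour 1 or any ΔIEC tumour (adjusted p = 0.0517 to 0.101), and that of Col5a3 without ΔIEC adjacent 1, ΔIEC tumour 2 or ΔIEC tumour 3 (adjusted p = 0.0610 to 0.0700). Col5a1, the chain found in most type V molecules, ranged from 1.52 to 7.97 FPKM in adjacent and from 4.83 to 14.9 in tumour libraries, and rose by 1.49 in flox tumours (limma adjusted p = 0.0416). That call was lost without flox adjacent 2 or 3, ΔIEC adjacent 3, flox tumour 1 or 2 or ΔIEC tumour 2 (adjusted p up to 0.142), and in ΔIEC mice Col5a1 differed by 0.86 (limma adjusted p = 0.220). Of the 2 other tested fibrillar genes, Col27a1, a cartilage collagen, was called higher in flox tumours (0.88, limma adjusted p = 0.0419). This call held without ΔIEC adjacent 1 or 2 or ΔIEC tumour 1 or 3 and was lost without any of the other 8 libraries (adjusted p up to 0.133). Only 34.7% of the FPKM of Col27a1 belonged to protein-coding transcripts. Col24a1, a minor fibrillar chain, had 0.403 to 1.01 FPKM in adjacent and 0.508 to 1.25 in tumour libraries and was not called, except in flox mice without flox tumour 3 (limma adjusted p = 0.0428).

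The basement membrane genes Col4a1 and Col4a2 form the common collagen IV network and lie head to head on chromosome 8, at 11198423 to 11312826 on the minus strand and 11312805 to 11449287 on the plus strand, so that their annotated exons overlap by 22 bases. Col4a1 had 29.1, 10.7 and 11.2 FPKM in flox adjacent, 5.83, 45.2 and 27.7 in ΔIEC adjacent, 82.4, 126.0 and 58.6 in flox tumour and 46.9, 91.8 and 94.6 in ΔIEC tumour libraries. Col4a2 had 9.26, 3.64 and 5.96 FPKM in flox adjacent, 2.18, 14.7 and 10.8 in ΔIEC adjacent, 29.4, 46.3 and 25.02 in flox tumour and 15.9, 28.1 and 41.1 in ΔIEC tumour libraries. The 2 genes ordered the libraries almost alike, and in both every tumour library exceeded every adjacent one by a margin that was small between ΔIEC adjacent 2 and ΔIEC tumour 1. In flox tumours Col4a1 rose by 2.40 (SE 0.66, limma adjusted p = 0.0190) and Col4a2 by 2.27 (SE 0.58, adjusted p = 0.0130). Both calls were lost without flox adjacent 2 for Col4a2 with an adjusted p of 0.0536, and that of Col4a1 also without flox adjacent 3 or flox tumour 2 (adjusted p = 0.0615 to 0.0693 over the 3 fits). In ΔIEC tumours the differences were 1.85 for Col4a1 (limma adjusted p = 0.0603) and 1.71 for Col4a2 (adjusted p = 0.0488), and the call of Col4a2 held without ΔIEC adjacent 2 but in none of the other 11 fits that left out a library (adjusted p = 0.0509 to 0.134). Without ΔIEC adjacent 2, Col4a1 was called as well (adjusted p = 0.0237).

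The X-linked pair Col4a5 and Col4a6, which form a second collagen IV network around smooth muscle and some epithelia, did not share this pattern. Col4a5 had 0.493 to 1.71 FPKM in adjacent and 0.123 to 0.792 in tumour libraries, with differences of -0.35 and -0.51 in flox and ΔIEC mice (limma adjusted p = 0.311 and 0.164). It passed the filter through adjacent libraries alone, so a lower level in tumours was partly fixed by the filter. Col4a6 fell under the filter, with 0.310 to 1.35 FPKM in adjacent and 0.0606 to 0.309 in tumour libraries, so all 6 adjacent libraries lay above all 6 tumour libraries. In a fit without the filter it was called lower in ΔIEC tumours (-0.74, limma adjusted p = 0.0121) but not in flox tumours (-0.37, adjusted p = 0.121). Col4a3 and Col4a4, the chains known from kidney glomeruli, did not pass the filter.

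Collagen VI, whose beaded filaments link cells to the interstitial matrix, is built from Col6a1, Col6a2 and a further chain, most often Col6a3. Col6a1 had 19.9, 6.61 and 12.3 FPKM in flox adjacent, 6.83, 33.2 and 25.5 in ΔIEC adjacent, 26.4, 24.0 and 15.3 in flox tumour and 14.5, 22.4 and 27.1 in ΔIEC tumour libraries. Tumour and adjacent values overlapped in both genotypes, and the differences were 0.80 (limma adjusted p = 0.271) and 0.18 (adjusted p = 0.834). Col6a2 ran close to Col6a1 in every library, with 5.25 to 29.3 FPKM in adjacent and 12.2 to 21.4 in tumour libraries, and differences of 0.71 (limma adjusted p = 0.336) and 0.12 (adjusted p = 0.888). Without ΔIEC adjacent 1 the ΔIEC differences were -0.47 for Col6a1 and -0.57 for Col6a2.

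Col6a3 (chr1:90765923-90843971) had 15.4, 4.71 and 6.15 FPKM in flox adjacent, 3.67, 20.3 and 14.4 in ΔIEC adjacent, 34.1, 32.7 and 20.5 in flox tumour and 17.3, 30.5 and 28.3 in ΔIEC tumour libraries. It rose by 1.75 (SE 0.56) in flox tumours (limma adjusted p = 0.0335), a call lost without flox adjacent 2 or 3 or flox tumour 1 or 2 (adjusted p = 0.0873 to 0.118), and differed by 1.16 in ΔIEC tumours (adjusted p = 0.143). Col6a4, a chain with a more limited tissue range, was called in neither genotype. Col6a5 had 1.25, 3.02 and 1.55 FPKM in ΔIEC adjacent against 0.754, 0.991 and 0.610 in ΔIEC tumour libraries, a difference of -0.68 (limma adjusted p = 0.0579). It passed the threshold without flox adjacent 1 or ΔIEC adjacent 1 (adjusted p = 0.0398 to 0.0432). Col6a5 passed the filter through the ΔIEC adjacent libraries, flox adjacent 1 and flox tumour 1. A lower level in ΔIEC tumours was thus partly fixed by the filter.

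The FACIT gene Col12a1 (chr9:79598991-79718831), whose product binds fibrils in tissues under tension, had 6.08, 2.63 and 3.77 FPKM in flox adjacent, 1.33, 9.01 and 5.22 in ΔIEC adjacent, 19.4, 35.3 and 15.8 in flox tumour and 13.0, 22.1 and 43.6 in ΔIEC tumour libraries. All tumour libraries lay above all adjacent ones. Its rises were nearly equal in the genotypes, with 2.22 in flox (SE 0.57, limma adjusted p = 0.0137) and 2.21 in ΔIEC tumours (SE 0.57, adjusted p = 0.0172), and they were lost without flox adjacent 2 (0.0545) and without ΔIEC adjacent 1 or ΔIEC tumour 3 (0.0508 to 0.0523). Col14a1 and Col16a1, the other interstitial FACITs tested, were not called in either genotype, except that Col14a1 passed the threshold in flox mice without ΔIEC adjacent 1 or without flox tumour 3 (limma adjusted p = 0.0407 to 0.0451).

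Type IX collagen, a FACIT of cartilage, was near the floor of the table in adjacent tissue. Col9a2 had 0.177, 0.196 and 0.0205 FPKM in flox adjacent, 0.0222, 0.0515 and 0.0166 in ΔIEC adjacent, 2.83, 2.18 and 1.40 in flox tumour and 1.98, 1.20 and 0.919 in ΔIEC tumour libraries. Col9a3 had 0.198 to 0.528 FPKM in adjacent libraries, 2.92, 2.11 and 1.65 in flox tumour and 0.679, 2.71 and 1.86 in ΔIEC tumour libraries. Their tumour values were higher in both genotypes, with no overlap. Both genes passed the filter through tumour libraries alone, so a higher level in tumours was partly fixed by the filter. In flox tumours Col9a2 rose by 1.45 (limma adjusted p = 8.55e-04), and in ΔIEC tumours by 1.17 (adjusted p = 0.00345), and Col9a3 by 1.26 (adjusted p = 0.00574) and 0.98 (adjusted p = 0.0219, lost without ΔIEC adjacent 3, ΔIEC tumour 2 or ΔIEC tumour 3 at up to 0.0733). Exons of Col9a3 overlap those of Tcfl5 on the opposite strand by 234 bases, and the sources used here do not state whether counting used the strand. Col9a1, the third chain of the type, stayed under the filter, although all 6 of its tumour values exceeded its 6 adjacent values.

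The anchoring fibril gene Col7a1 (ENSMUSG00000025650, chr9:108953586-108984875) had 0.573, 0.180 and 0.389 FPKM in flox adjacent, 0.245, 1.13 and 0.916 in ΔIEC adjacent, 5.87, 5.39 and 4.10 in flox tumour and 3.16, 5.10 and 5.36 in ΔIEC tumour libraries. The lowest tumour library held more than the highest adjacent library by a wide margin. Col7a1 rose in flox tumours by 2.15 (SE 0.24, limma adjusted p = 4.12e-04) and in ΔIEC tumours by 1.66 (SE 0.24, adjusted p = 0.00169), the smallest adjusted p among collagen genes in both. Col7a1 had only 1 adjacent library at an FPKM of 1, so its higher level in tumours was partly fixed by the filter. Only 37.2% of its FPKM belonged to protein-coding transcripts, and the most abundant of its 8 annotated transcripts was a retained intron.

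Col17a1 (chr19:47646344-47692094), a transmembrane collagen of the hemidesmosomes that fix basal keratinocytes to the basement membrane, had 0.855, 0.593 and 0.772 FPKM in flox adjacent, 0.849, 0.611 and 0.398 in ΔIEC adjacent, 6.95, 4.14 and 1.89 in flox tumour and 1.51, 0.995 and 0.630 in ΔIEC tumour libraries. The flox tumours stood above all other libraries, while ΔIEC tumour 3 lay within the adjacent range. Col17a1 rose by 1.5 (SE 0.32) in flox tumours (limma adjusted p = 0.00526) and differed by 0.32 in ΔIEC tumours (adjusted p = 0.469). It passed the filter through the flox tumours and ΔIEC tumour 1, so its rise in flox tumours was partly fixed by the filter. The sum of 8 squamous epithelial markers was 0.840 to 4.52 FPKM in adjacent libraries, 396.8, 380.3 and 24.1 in flox tumours and 44.1, 28.6 and 19.5 in ΔIEC tumours. Of the 6 tested squamous markers, 5 were called higher in flox tumours (Krt13 by 4.67, Krt14 by 4.24 and Krt5 by 4.15, limma adjusted p = 9.44e-04, 0.00728 and 0.0473) and 2 in ΔIEC tumours (Krt14 by 2.87 and Krt13 by 2.82, adjusted p = 0.0449 and 0.0126). Over all tested genes, 16.6% were called higher in flox and 13.9% in ΔIEC tumours. Krt5, Krt4, Krt6a and Dsg3 had at most 0.317 FPKM in adjacent libraries. None of the 6 tested squamous markers would have passed the filter on adjacent libraries alone. For them a higher level in tumours was partly fixed by the filter. Krt5, Krt4, Krt6a, Trp63 and Ivl were at 0 in 1 to 3 libraries each. The part of squamous epithelium in the Col17a1 and Col7a1 results was not tested.

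Among the multiplexins, Col18a1 (chr10:77052178-77166548), the source of endostatin, had 7.07, 3.27 and 3.73 FPKM in flox adjacent, 1.09, 11.7 and 5.62 in ΔIEC adjacent, 21.2, 25.1 and 15.6 in flox tumour and 10.4, 19.97 and 25.5 in ΔIEC tumour libraries. ΔIEC adjacent 2 exceeded ΔIEC tumour 1, and the flox groups were separate. It rose by 1.96 (SE 0.58, limma adjusted p = 0.0244) in flox tumours and by 1.72 (SE 0.58, adjusted p = 0.0478) in ΔIEC tumours. The flox call was lost without flox adjacent 2 or 3 or flox tumour 1 or 2 (adjusted p = 0.0635 to 0.0823), and the ΔIEC call held without flox adjacent 1 or ΔIEC adjacent 2 and was lost in the other 10 fits without a library (adjusted p up to 0.126). Col15a1, the other multiplexin, had 2.30 to 10.7 FPKM in adjacent and 3.97 to 14.1 in tumour libraries and was not called. Col23a1, a transmembrane collagen, was called higher in flox tumours (0.76, limma adjusted p = 0.0197, lost without flox adjacent 2 or flox tumour 1 at up to 0.0740), and differed by 0.46 in ΔIEC tumours (adjusted p = 0.128). Col23a1 passed the filter through tumour libraries alone, so this direction was partly fixed by the filter. The short-chain network collagens Col8a1 and Col10a1 were called in neither genotype (0 of 2 genes, 0 at an unadjusted p under 0.05).

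The genes that stayed under the filter were a separate set of low members. Of these 16, 7 had a mean FPKM below 0.1. Col8a2 (0.0934 to 0.241 FPKM in adjacent, 0 to 0.0446 in tumour libraries) and Col20a1 (0.415 to 0.850 and 0.102 to 0.249) were, like Col4a6, higher in all adjacent than in all tumour libraries. Without the filter, Col20a1 was called lower in flox (-0.49, limma adjusted p = 0.0135) and ΔIEC tumours (-0.40, adjusted p = 0.0410), as was Col8a2 (-0.17, adjusted p = 0.0297, and -0.20, adjusted p = 0.0176). The filtered and unfiltered fits thus differ in the direction of calls among low members: without the filter, 14 collagen genes were called higher and 2 lower in flox tumours, and 5 higher and 3 lower in ΔIEC tumours. That fit tested 31599 genes, of which 8.39% were called higher and 9.51% lower in flox tumours and 6.58% and 7.12% in ΔIEC tumours.

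Because several types are assembled from fixed sets of chains, the balance between partner genes was compared within each library, as a description with no test. The Col1a1 to Col1a2 ratio was 0.638, 0.722 and 0.507 in flox adjacent, 0.368, 0.470 and 0.484 in ΔIEC adjacent, 0.909, 1.16 and 1.03 in flox tumour and 0.910, 0.935 and 0.929 in ΔIEC tumour libraries. Its mean was 0.532 ± 0.127 (SD, n = 6) in adjacent and 0.980 ± 0.10 (SD, n = 6) in tumour libraries, and the 2 tissues did not overlap. The tissues were separate also for Col5a2 to Col5a1 (0.874 to 1.28 in adjacent, 1.65 to 2.64 in tumour libraries), Col5a3 to Col5a1 (0.101 to 0.191 and 0.272 to 0.450) and Col6a3 to Col6a1 (0.502 to 0.772 and 1.04 to 1.36). Col6a2 to Col6a1 (0.769 to 0.904 and 0.769 to 0.899), Col4a1 to Col4a2 (1.88 to 3.14 and 2.30 to 3.27) and Col1a1 to Col3a1 (0.203 to 0.300 and 0.204 to 0.496) overlapped. These ratios do not depend on the scaling of a library. The same 4 of 7 ratios were free of overlap with protein-coding transcripts only and with the most abundant transcript of each gene, although the level moved: the tumour mean of Col1a1 to Col1a2 was then 1.11 and 1.28, and that of Col6a3 to Col6a1 with the most abundant transcript was 0.532. Col4a1 carried 60.0% of its FPKM on protein-coding transcripts and Col4a2 99.3%, and with those transcripts the tumour mean of their ratio was 1.61.

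**Figure D3:**
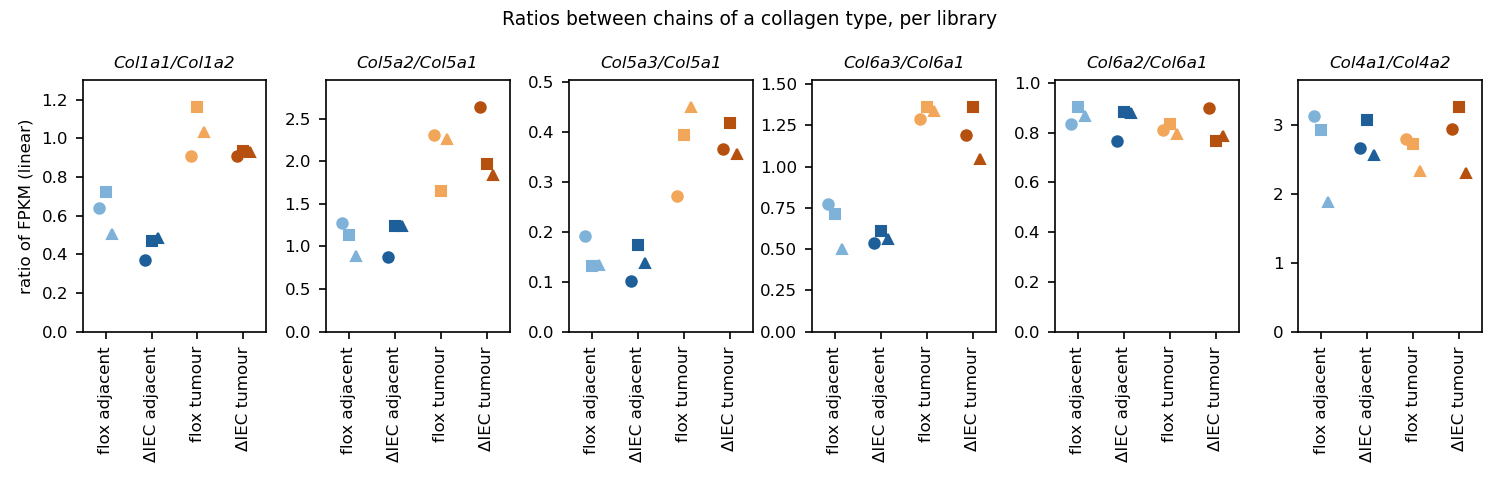
Ratio of FPKM between partner chains in each of the 12 libraries, on linear axes from 0 (circle, square and triangle are replicates 1, 2 and 3). In the first 4 panels every tumour library lies above every adjacent library, and in the last 2 (Col6a2 to Col6a1 and Col4a1 to Col4a2) the tissues overlap.

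The share of each class in the summed collagen transcripts was compared in the same way. Summed over the 44 genes, collagens had 240.4, 96.0 and 139.0 FPKM in flox adjacent, 76.3, 371.3 and 259.6 in ΔIEC adjacent, 558.3, 724.6 and 403.3 in flox tumour and 291.8, 499.0 and 639.8 in ΔIEC tumour libraries. Collagen IV genes held 12.5% to 17.03% of this sum in adjacent and 20.3% to 24.3% in tumour libraries, and beaded filament genes 21.4% to 26.0% and 11.3% to 17.2%, both without overlap between tissues. Fibrillar genes held 43.5% to 46.1% and 45.9% to 53.0%, which overlapped.

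Some markers of other cell types differed between the same groups. The 12 fibroblast markers summed to 132.5, 33.2 and 53.3 FPKM in flox adjacent, 31.6, 184.8 and 165.7 in ΔIEC adjacent, 328.1, 298.8 and 173.8 in flox tumour and 213.1, 289.7 and 420.7 in ΔIEC tumour libraries, and none was at 0 in any library. As for the summed collagens, flox adjacent 2 and ΔIEC adjacent 1 were the lowest and ΔIEC adjacent 2 the highest of the adjacent libraries. In flox tumours 5 of 11 tested fibroblast markers were called higher, led by Dcn (2.93, limma adjusted p = 0.0201), Fgf7 (1.90) and Thy1 (1.48), against 16.6% of all tested genes, and in ΔIEC tumours 2, Fgf7 (2.13) and Pdgfra (1.42), against 13.9%. Of 8 endothelial markers, 6 were called higher in flox tumours (Cdh5 by 1.70, Emcn by 1.42 and Pecam1 by 1.41) and 0 in ΔIEC tumours (limma, 2 at an unadjusted p under 0.05, the smallest adjusted p being 0.0653 for Cdh5). None of 8 smooth muscle markers was called in either genotype (limma, 0 at an unadjusted p under 0.05), with sums of 26.2 to 267.4 in adjacent and 44.9 to 290.8 in tumour libraries. Of 8 leukocyte markers, 2 were called higher in flox (Itgam and Cd68) and 1 in ΔIEC tumours (Itgam), and the single tested glial marker, Ngfr, was not called (adjusted p = 0.213 and 0.336). Epithelial markers summed to 5572 to 9584 FPKM in adjacent and 4002 to 5743 in tumour libraries, with 7 of 8 called lower in flox (Krt20 by -2.17, Vil1 by -1.38, Krt8 by -0.93) and 2 in ΔIEC tumours (Krt20 and Vil1), against 19.7% and 15.5% of all tested genes called lower. With quantile normalization these became 2 lower in flox, and 1 lower and 1 higher in ΔIEC tumours, and with protein-coding genes rescaled 3 lower, and 2 lower and 1 higher. The part of fibroblast or vessel content in the collagen results was not tested.

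**Figure D4:**
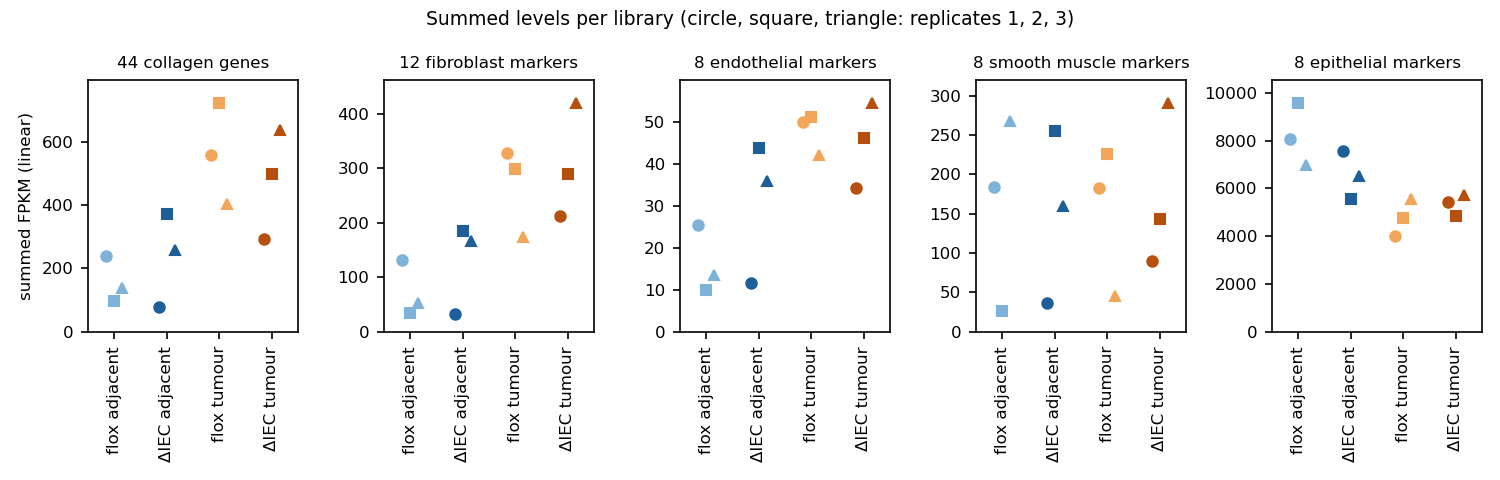
Summed FPKM per library of the 44 collagen genes and of 4 lists of cell type markers, on linear axes from 0 (circle, square and triangle are replicates 1, 2 and 3). Collagen sums range from 76.3 to 371.3 in adjacent and from 291.8 to 724.6 in tumour libraries, and the fibroblast sums put the adjacent libraries in the same order.

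Genotype was the second question, asked within each tissue. No collagen gene was called between ΔIEC and flox adjacent tissue (limma, 0 of 28, 1 at an unadjusted p under 0.05), as for 0% of all tested genes, of which 702 had an unadjusted p under 0.05. The median collagen difference was 0.34, with 23 genes positive, but leaving out ΔIEC adjacent 1, the adjacent library lowest in summed collagen, raised it to 0.72. Leaving out ΔIEC adjacent 2, the highest, lowered it to -0.04, and it was 0.09 without flox adjacent 2 and 0.14 without ΔIEC adjacent 3. The smallest p was that of Col6a5, with 1.24, 0.397 and 0.499 FPKM in flox adjacent against 1.25, 3.02 and 1.55 in ΔIEC adjacent libraries, a difference of 0.77 (limma adjusted p = 0.931). Flox adjacent 1 and ΔIEC adjacent 1 almost met in these values. Outside ΔIEC adjacent tissue, Col6a5 reached an FPKM of 1 only in flox adjacent 1 and flox tumour 1. Its higher level in ΔIEC adjacent tissue was thus partly fixed by the filter. The next on the higher side was Col24a1 (0.36, adjusted p = 0.931), and on the lower side Col10a1 (-0.19) and Col8a1 (-0.30) had the smallest p (adjusted p = 0.931 and 0.940).

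In tumours, too, 0 of 28 collagen genes were called between genotypes (limma, 1 at an unadjusted p under 0.05), as for 0% of all tested genes, of which 317 had an unadjusted p under 0.05. The median was -0.20 with 24 genes negative, and it was 0.04 without ΔIEC tumour 1, -0.08 without flox tumour 2, -0.40 without flox tumour 3 and -0.36 without ΔIEC tumour 3. Col17a1 had the smallest p, at a difference of -1.29 (SE 0.32, limma adjusted p = 1.0), with all 3 ΔIEC tumours below all 3 flox tumours. Only the flox tumours and ΔIEC tumour 1 reached an FPKM of 1 for Col17a1. Its lower level in ΔIEC tumours was thus partly fixed by the filter. The exact permutation p of 3 against 3 libraries cannot go below 0.1, which it reached for Col17a1. Col9a2 was next by p (-0.40, adjusted p = 1.0), and Col6a4 (0.17) and Col24a1 (0.02) had the smallest p among positive differences. Col9a2 reached an FPKM of 1 in all flox tumours and otherwise in ΔIEC tumours 1 and 2, so the same limit holds for it.

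The interaction, which asks whether the tumour difference depends on genotype, called 0 of 28 collagen genes (limma, 2 at an unadjusted p under 0.05) and 0% of all tested genes, of which 448 had an unadjusted p under 0.05. The 8 genes called in flox but not in ΔIEC tumours are thus not shown to differ between genotypes. The collagen median was -0.53 with 26 of 28 genes negative, and it ranged from -0.95 without ΔIEC adjacent 1 to -0.16 without ΔIEC adjacent 2. This contrast, the adjacent contrast and the tumour contrasts share libraries, so their directions are not independent. Col6a5 (-0.95, SE 0.34) and Col17a1 (-1.18, SE 0.45) had the smallest p, at a limma adjusted p of 1.00 each, and Col10a1 (0.06) and Col8a1 (0.10), the only positive genes, turned negative with protein-coding genes rescaled. Col6a5 passed the filter mainly through ΔIEC adjacent libraries and Col17a1 mainly through flox tumours, so both values were partly fixed by it. The error was large beside the value for abundant genes, as the interaction of Col3a1 was -0.55 with an SE of 0.77, and that of Col1a1 was -0.83 with an SE of 0.91.

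Genes that act on collagens were counted by function, to be read against 16.6% of all tested genes called higher and 19.7% lower in flox tumours, and 13.9% and 15.5% in ΔIEC tumours. Among 17 tested genes for modification and folding, 4 were called higher and 0 lower in flox tumours (limma, 1 lower at an unadjusted p under 0.05), namely Sparc, a collagen-binding secreted protein (2.32, limma adjusted p = 0.0203), Fkbp10, a procollagen prolyl isomerase (1.49), Plod3, a lysyl hydroxylase (0.71), and Colgalt1, a collagen galactosyltransferase. In ΔIEC tumours 3 were higher, including Fkbp10 (1.24) and Colgalt1 (0.69), and P4ha1, a prolyl 4-hydroxylase subunit, was lower (-0.76, adjusted p = 0.0201). P4ha2, a further such subunit, was the other gene called higher, and P4ha1 was not called when protein-coding genes were rescaled. Of 16 tested genes for export of procollagen from the endoplasmic reticulum, 6 were called lower and 1 higher in flox tumours and 5 lower and 2 higher in ΔIEC tumours. Mia3, which encodes TANGO1, the receptor that loads procollagen into COPII carriers, fell by 1.29 (adjusted p = 0.00389) and by 1.14 (adjusted p = 0.00922), and remained lower in both genotypes under each scaling tried. The COPII coat genes Sec23a (-0.91 and -0.54) and Sec24d (-0.80 and -1.02) were also called lower in both, although with protein-coding genes rescaled Sec23a was called in flox and Sec24d in ΔIEC mice alone, while Creb3l2, a transcription factor of the secretory pathway, was higher in flox tumours (0.94). With protein-coding genes rescaled, this list had 7 higher and 2 lower calls in flox and 5 and 2 in ΔIEC tumours, so its direction depends on the scaling. The list includes Trappc4, the deleted gene, which was among the 7 higher calls in flox tumours (0.57, limma adjusted p = 0.00792).

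Genes that act outside the cell were called in 1 direction, against 16.6% and 13.9% of all tested genes called higher in flox and ΔIEC tumours. Of 9 tested genes for propeptide cleavage and crosslinking, 5 were called higher in flox and 3 in ΔIEC tumours: Bmp1, the procollagen C-proteinase (1.77 at a limma adjusted p of 2.99e-04 and 1.28 at one of 0.00149), Lox (1.92 and 1.76) and Loxl2 (1.95 and 1.79), which oxidise lysines for crosslinks, rose in both. Of 12 genes for collagen degradation and its inhibitors, 10 were called higher in flox and 9 in ΔIEC tumours, with the stromelysin genes Mmp10 (4.16 and 5.73) and Mmp3 (3.03 and 2.61) and the collagenase gene Mmp13 (3.69 and 5.12) the largest. Of 7 collagen receptors, 3 were higher in flox (Itga1, Lair1 and Itgb1 by 0.96, 0.82 and 0.50) and 2 in ΔIEC tumours (Itga1 and Itgb1 by 1.03 and 0.76). Of 15 other basement membrane genes, 8 were called higher in each genotype, among them Lama5, a laminin chain (2.21 and 2.03), in both, Pxdn, the peroxidase that crosslinks collagen IV (1.93), in flox tumours and Lama3, a laminin chain (1.90), in ΔIEC tumours. None of these 4 lists had a gene called lower in either genotype, under the deposited scaling or the 3 others tried (limma, 1 lower at an unadjusted p under 0.05 with the deposited scaling, Fap in ΔIEC tumours). Of the called genes, Mmp8 (at most 0.0760 FPKM in adjacent libraries), Mmp3, Mmp9, Timp1, Lox, Loxl4 and Lama1 would not have passed the filter on adjacent libraries alone. For them a higher level in tumours was partly fixed by the filter.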

How the data were processed

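Tumours and adjacent colon were dissected and strand-specific TruSeq libraries made from total RNA, per the labels' protocols. The submitters' processing notes name FastQC, STAR 2.5, Cuffnorm and GRCm38, without roles or a library normalization method. The authors deposited 1 table of transcripts in log2(FPKM + 1). Of 123062 transcripts, 118004 (95.9%) matched GENCODE M21; the log was undone and FPKM added up within genes, with 212 transcripts in collagen genes. limma 3.58.1 in R 4.3.3 (lmFit, contrasts.fit, eBayes with trend and robust) was fitted to log2(FPKM + 1) of the 16970 genes that reached an FPKM of 1 in 3 or more of the 12 libraries, with 4 group means, no block and 5 contrasts, and was tested on simulated data. Collagen members and lists were chosen with earlier results of these data known. Named genes are Trappc4, the 3 most abundant tested genes of each class, collagens called in a tumour contrast, and otherwise the 2 smallest p in each direction; further members are named with values, chosen after these were seen, as are those under the filter. Proteins were not analysed here, so Gly-X-Y runs were read from coding sequence. Title numbers, and 5 description codes that an adjacent and a tumour library share, were not used to pair libraries, because the labels do not say what they mark. Without counts, no depth or counting interval is given. One gene that the rule names is not reported here.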

Additional observations from a re-analysis of the deposited data

How the results depend on the processing

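The counts of collagen genes called in tumours rest on 3 libraries a group. Those given here are of calls in either direction. Some were lower without the filter and, in ΔIEC mice, with quantile normalization or without flox adjacent 1 or ΔIEC adjacent 1. In flox mice the 16 calls stayed between 11 and 20 under every other setting that kept all libraries, and went from 6 to 18 with 1 library left out. In ΔIEC mice the 8 calls became 5 with a filter at an FPKM of 5, 2 with only the groups compared, and 2 to 11 with 1 library left out. Calls over all tested genes moved in these fits too. In flox mice 6163 became 4877 to 7391 with all libraries kept and 3898 to 6673 with 1 left out. In ΔIEC mice 4981 became 4151 (of 11251 genes tested) with the filter at an FPKM of 5 and 2564 with only the groups compared. With 1 library left out they were 2919 to 5107. The description codes shared by an adjacent and a tumour library may or may not mark 1 animal, which the labels do not say; deviations of libraries with the same code correlated at -0.19 to 0.17 over 5 pairs, and with the same title number at -0.40 to 0.19 over 18 pairs. Replicate blocks gave 5 calls in ΔIEC mice by title number and, added after the data were seen, 2 with the description code as a fixed term, against 14 and 18 in flox mice; a random block by code gave 16 in flox and 8 in ΔIEC mice. ΔIEC adjacent 1 and ΔIEC tumour 1 share their codes with no other library, so the fixed term took both out of the ΔIEC comparison. Over all tested genes the fixed term left 651 calls in ΔIEC and 5959 in flox mice, against 4981 and 6163 without a block. Blocks by title number left 4115 and 5387. Genotype and interaction calls among collagens were 0 under every setting tried. With ΔIEC adjacent 1 left out, 303 genes in all were called between genotypes in adjacent tissue, none a collagen. With 1 library left out, the sign turned for 2 of 28 collagen genes in flox tumours (Col10a1 and Col8a1), 8 in ΔIEC tumours, 12 by genotype in adjacent tissue, 18 by genotype in tumours and 9 in the interaction, none of them called. For the genes named by rule in these contrasts the range over such fits follows. In ΔIEC tumours they were Col1a2 (-0.083 to 1.075, negative without ΔIEC adjacent 1), and Col6a1 (-0.472 to 0.590) and Col6a2 (-0.574 to 0.563), both negative without ΔIEC adjacent 1 or ΔIEC tumour 3 and, at -0.231 and -0.401, with the fixed code block. By genotype in tumours they were Col6a4 (-0.109 to 0.406, negative without flox tumour 3) and Col24a1 (-0.149 to 0.174, negative without flox tumour 3, ΔIEC tumour 2 or ΔIEC tumour 3, and -0.005 with protein-coding genes rescaled). In the interaction they were Col10a1 (-0.011 to 0.143, negative without flox adjacent 3 or ΔIEC adjacent 2, and -0.033 rescaled) and Col8a1 (-0.395 to 0.399, negative without those libraries, flox tumour 3 or ΔIEC tumour 3, and -0.011 rescaled). The cause of these changes was not tested.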
